A study of Ramazzottius varieornatus with 27 samples.

Results

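The tardigrade *Ramazzottius varieornatus*, a microscopic land animal that survives drying and high doses of radiation, was sampled 6 h after 500 Gy of gamma ray and set against non-irradiated controls. The comparison rests on 6 of the 27 libraries of the series: 3 libraries of 6 h (h06-1, h06-2 and h06-3, called replicates 1, 2 and 3) and 3 controls (Ctrl-1, Ctrl-2 and Ctrl-3), each made from whole bodies of 30 animals. By the methods, the irradiated animals came from 2 tubes, were spread on agar plates and kept at 22 °C until sampling, and the 3 libraries of a group are technical replicates. The p-values therefore measure only the spread between such replicates, which was taken from a fit of all 27 libraries. No sampling time is given for the controls, so the time on the plate and the irradiation cannot be told apart. The methods give 21 cycles of PCR from 6 h replicate 3 to 21 h replicate 3, and 23 cycles for the 24 h libraries. They give 15 cycles for a range of libraries that ends at 6 h replicate 2 and opens with a name that no library carries. This was read here as 15 cycles for the 4 h libraries and replicates 1 and 2 of 6 h, with no number assigned to the controls. Replicate 3 is therefore shown apart throughout, and its cycle number cannot be told apart from other differences of that single library.

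Gamma ray breaks DNA and splits water into reactive oxygen species, so an irradiated cell has to mend broken strands and to remove oxidants. In animals in general, part of the transcript response to such damage is switched on within hours and fades, while other transcripts change later as cells recover or stop dividing. The transcripts measured here carry gene model numbers (such as g7793.t1, the first transcript of gene model g7793), and 0 of the 14532 matched a name in the gene table used here. Transcripts are therefore given by number, with no role, and no list of repair or antioxidant genes could be followed.

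The values are TMM-normalized TPM, which are the share of a transcript in a library scaled to a common total after division by its length and multiplied by a factor for each library. TPM keeps no depth. The study lists mapped reads for each library, and these were fewer in every control than in replicates 1 and 2 of 6 h and fewest in control replicate 3. Those totals were not used here, and the part of depth in the results was not tested. Among the 6 libraries, 13314, 13667 and 13037 transcripts were above 0 at 6 h against 13126, 13325 and 11556 in the controls. Pearson's r between 2 libraries of a group, across transcripts, which are not independent replicates, was 0.965 to 0.977 at 6 h and 0.947 to 0.972 in the controls. The 6 h pair with the highest r was replicates 1 and 2 (0.977), and both of their pairs with replicate 3 were at 0.965 and 0.970.

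Of the 12820 transcripts tested, 84 rose above the controls by 6 h and 285 fell below them. This is 0.655% and 2.22% of those tested. A transcript was called at an adjusted p under 0.05 (limma on log2(value + 1), Benjamini-Hochberg over all tested transcripts) with group means that differed by more than 2-fold. The median log2 fold change was 1.19 for the higher transcripts and -1.62 for the lower ones, and 0.06 over all tested. The balance of the 2 directions depended on the fold limit: with no such limit, 698 transcripts were higher and 416 lower at an adjusted p under 0.05 (limma). It also depended on scaling, as higher transcripts were 22.8% of the calls with the TMM factor and 39.4% once the libraries were brought to an equal sum (157 higher, 241 lower).

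**Figure D1:**
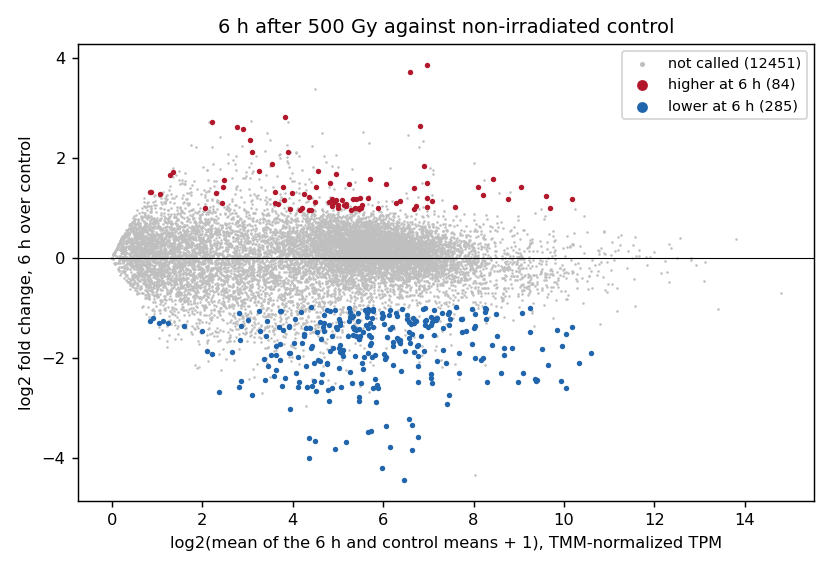
Log2 fold change of 6 h over control (vertical) against the log2 of the mean level (horizontal), 1 point per tested transcript. The 285 lower calls (blue) spread down to -4.44, while the 84 higher calls (red) have a median of 1.19.

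The size of these counts rested on single libraries. Leaving out 6 h replicate 3 gave 21 higher and 89 lower transcripts, leaving out replicate 2 gave 71 and 179, and leaving out replicate 1 gave 104 and 309. Without control replicate 2, 37 were higher and 154 lower, and without control replicate 3, 150 and 211. The lower transcripts outnumbered the higher ones in each of these fits and in the fit without control replicate 1 (89 higher, 210 lower).

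**Figure D2:**
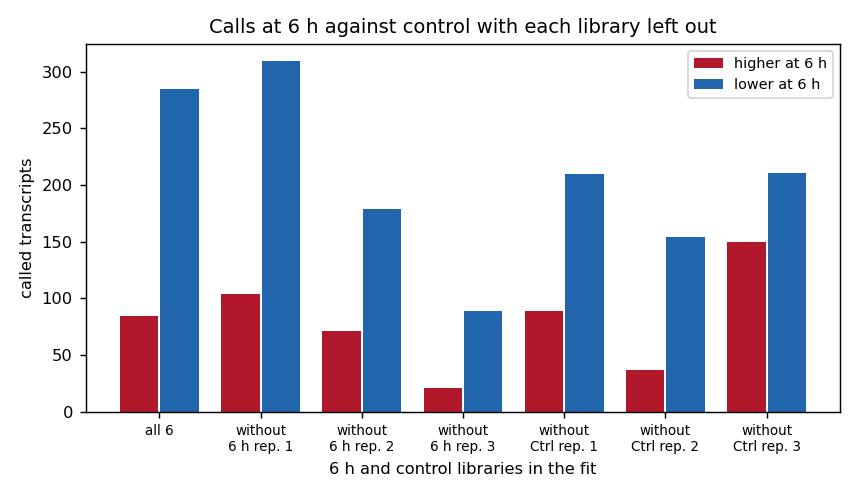
Number of transcripts called higher (red) and lower (blue) at 6 h against control, with all 6 libraries of the comparison and with each left out in turn. The lowest bars are those without 6 h replicate 3, at 21 and 89.

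Most of the changes were modest in size. Among the higher transcripts, 68 had a ratio of means from 2 to 4, 6 from 4 to 8 and 10 above 8, with controls listed at 0 in 2 of these 10. Among the lower ones, 181 had a ratio from 2 to 4, 81 from 4 to 8 and 23 above 8. The 10 higher transcripts with a ratio above 8 had a median over transcripts of 5.01 at 6 h and 0.219 in the controls. For the 23 lower ones with a ratio above 8 it was 3.42 at 6 h and 55.6 in the controls. All transcripts called lower had a median of 75.8 in the controls. Picking by the ratio favours low control values in the 10 and low 6 h values in the 23, so nothing is read from these levels. The called transcript nearest to the fold limit had means of 403 at 6 h and 807 in the controls, and the one just outside it 32.7 and 16.4.

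The transcripts that were lower at 6 h together took a smaller share of the 6 h libraries than of the controls. Their summed value was 1.66 ± 0.309% of a library at 6 h and 5.03 ± 0.366% in the controls (SD, n = 3 each). By library it was 1.99%, 1.61% and 1.38% at 6 h, against 4.93%, 5.43% and 4.72% in the controls. The higher transcripts together took 1.08 ± 0.148% at 6 h and 0.405 ± 0.0335% in the controls. As these transcripts were picked by the same libraries, the sums describe the change in size and were not tested. Less RNA per cell and fewer cells with a transcript cannot be told apart in whole animals.

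The tested transcripts had to reach a value of 1 in at least 3 of the 27 libraries. This bound held 300 transcripts just inside (exactly 3 libraries, median of their largest value 2.49) and left 412 just outside (exactly 2 libraries, 2.03). None of the tested transcripts passed only through the 3 libraries of 6 h or only through the 3 controls. The share of calls differed by level. Of the 3104 transcripts with a mean of 1 to 10 over the 27 libraries, 0.29% were higher at 6 h and 0.741% lower. Of the 6248 with a mean of 10 to 100, 0.816% were higher and 3.06% lower. Rare transcripts also varied more, with a median SD of log2(value + 1) of 0.322 at 6 h and 0.478 in the controls for means of 1 to 10, against 0.187 and 0.229 for means of 10 to 100. Among the 100 transcripts with the highest control means, 0 were higher with limma and 9 were lower, against 0.655% and 2.22% of all tested. Choosing them by their control values favours falls, so nothing is read from this.

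**Figure D3:**
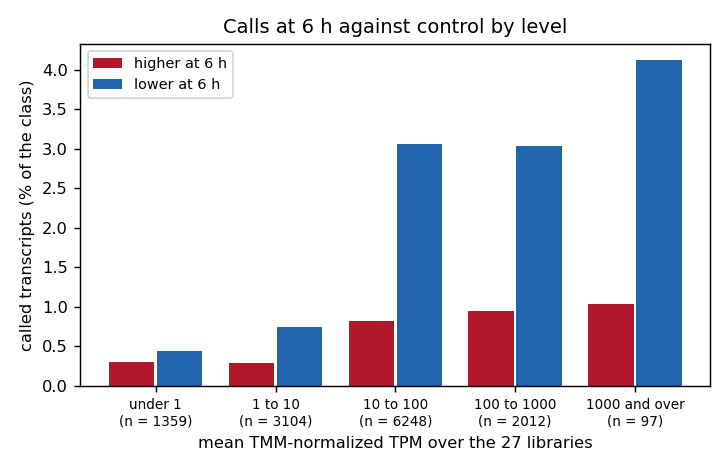
Share of tested transcripts called higher (red) or lower (blue) at 6 h against control, by their mean level over the 27 libraries. The lower calls are 0.741% of the class from 1 to 10, 3.06% of that from 10 to 100 and 4.12% of that of 1000 and over (4 of 97).

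Among genes with a single transcript model, the largest rise on the log2(value + 1) scale, which lessens the change of rare transcripts, was that of g7793.t1. It was at 255, 173 and 271 in replicates 1, 2 and 3 of 6 h, against 12.7, 13.1 and 19.5 in the controls. Every 6 h library lay far above every control, and replicate 3 (21 cycles) was close to replicate 1 (15 cycles). The log2 fold change was 3.86 (standard error 0.28, limma adjusted p = 1.9e-08). Its level was already high at 4 h and was lower at later times. The mean was 265 ± 41.8 in the 4 h samples, 204 ± 12.8 in those of 9 h and 72.4 ± 30.3 in those of 12 h. It was 62.9 ± 15.7 in those of 15 h and 42.7 ± 9.1 in those of 24 h (SD, n = 3 each). The 24 h libraries, at 53.1, 36.1 and 38.8, still lay above every control. The 12 h samples were lower than those of 4 h (log2 fold change -1.93, limma adjusted p = 0.000152, and 0.00848 with only these 2 groups in the fit).

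The transcript with the preceding number, g7792.t1, had the second largest rise on this scale. It was at 233, 169.8 and 132 in replicates 1, 2 and 3 of 6 h and at 9.58, 15.1 and 13.1 in the controls. The log2 fold change was 3.71 (standard error 0.37, limma adjusted p = 3.69e-06). Here replicate 3 was the lowest of the 6 h libraries, though still above all controls. Its mean was 273 ± 69.9 in the 4 h samples, 78.3 ± 14.5 in those of 9 h, 33.0 ± 11.7 in those of 12 h and 21.2 ± 1.42 in those of 24 h (SD, n = 3 each). Relative to 4 h, its 12 h level fell by 3.05 on the log2 scale (limma adjusted p = 2.39e-05, and 0.00362 with only these 2 groups in the fit).

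The deepest fall on the log2(value + 1) scale was that of g1899.t1, at 16.9, 5.80 and 2.71 in replicates 1, 2 and 3 of 6 h, against 186, 165 and 147 in the controls. The groups did not overlap, and replicate 3 was the lowest library of all 27. On the log2 scale it fell by 4.44 with a standard error of 0.60 (limma adjusted p = 0.00021). The 4 h libraries were at 17.0, 17.9 and 68.4, so that replicate 3 of that time stood apart. At 9 h it was at 146, 37.8 and 29.9. Adapter dimers are named in the methods for replicate 1 of 9 h, the highest of these, and their part was not tested. Later means of g1899.t1 were 22.7 ± 15.6 at 12 h, 59.8 ± 23.9 at 15 h and 38.9 ± 6.21 at 18 h. At 21 h the libraries were at 138, 107 and 61.3 (102 ± 38.7), and the 24 h mean was 64.7 ± 22.1 (SD, n = 3 each).

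The transcript g4251.t1 was at 7.73, 4.14 and 4.75 at 6 h and at 149, 97.6 and 108 in the controls. Its log2 fold change was -4.20 (standard error 0.84, limma adjusted p = 0.00455). With a pseudocount of 0.1 in place of 1 the adjusted p was 0.0656, and over all alternatives it ranged from 0.00224 to 0.0656. Later samples were low as well, at 3.63 ± 1.91 in the 12 h samples and 4.50 ± 2.24 in those of 24 h (SD, n = 3 each).

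The abundant transcript g12777.t1, described here whatever its values, was at 638, 580.2 and 577 in replicates 1, 2 and 3 of 6 h and at 249.5, 291 and 257 in the controls. All 6 h libraries lay above all controls, with little spread (598 ± 34.5 and 266 ± 22.3, SD, n = 3 each). The rise on the log2 scale was 1.17 with a standard error of 0.21 (limma adjusted p = 0.00247). It was 1.19 for replicates 1 and 2 alone and 1.12 for replicate 3 alone. The mean was 700 ± 26.1 in the 4 h samples, 646 ± 142 in those of 9 h and 351 ± 44.8 in those of 12 h. It was 272 ± 35.6 in those of 15 h and 181 ± 38.1 in those of 24 h (SD, n = 3 each). The 24 h mean was thus below that of the controls, which was not tested.

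**Figure D4:**
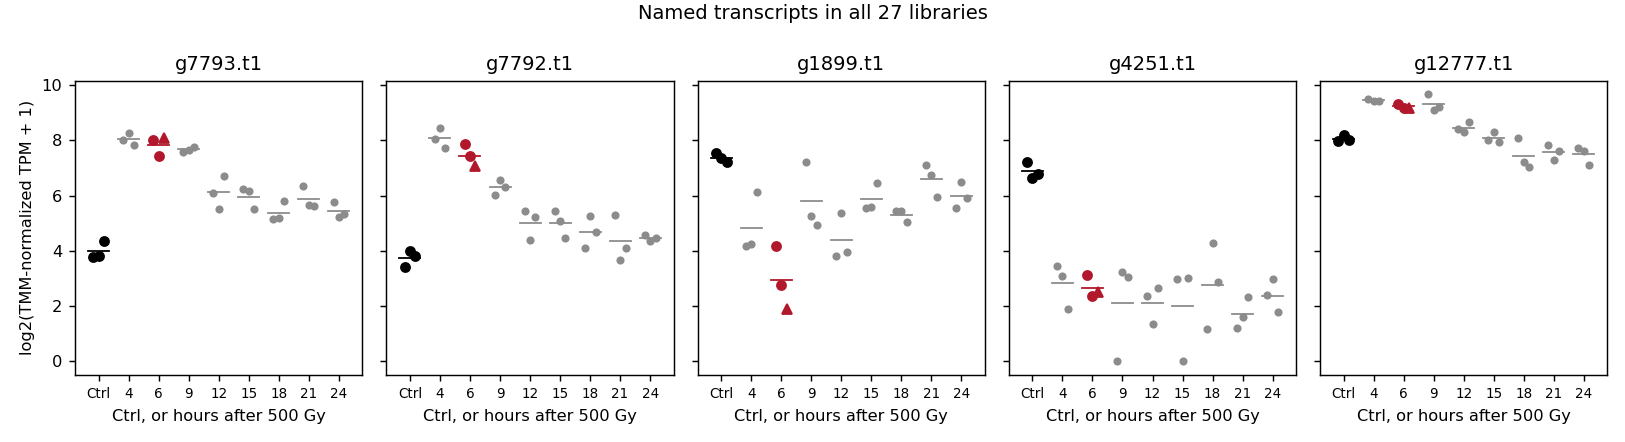
Level of the 5 named transcripts, as log2(TMM-normalized TPM + 1), in the controls (black) and at each time after irradiation (6 h in red, with replicate 3 as a triangle). Points are libraries and bars are group means. The transcripts g7793.t1 and g7792.t1 are high at 4 h and 6 h and lower from 12 h on, while g4251.t1 stays below the controls at every time.

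Replicates 1 and 2 of 6 h on the one side and replicate 3 on the other gave lists of unlike size against the same controls. Replicates 1 and 2 had 21 transcripts higher and 89 lower (0.164% and 0.694% of those tested), and replicate 3 had 230 higher and 278 lower (1.79% and 2.17%). A lone library is assumed here to vary like the other groups. Both lists shared 16 higher transcripts, which is 76.2% of the list of replicates 1 and 2 and 6.96% of that of replicate 3. They shared 78 lower transcripts, 87.6% and 28.1% of these lists. Since both lists use the same controls, this overlap is no independent support. The list of replicates 1 and 2 held 13 transcripts if 6 h replicate 2 was left out, 65 if 6 h replicate 1 or control replicate 1 was, and 59 if control replicate 2 was. That of replicate 3 held 280 without control replicate 2, and 845 at an equal sum per library.

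Set directly against replicates 1 and 2, replicate 3 differed in a single transcript, g8602.t1 (limma adjusted p = 0.00108). At an unadjusted p under 0.05, 265 transcripts were higher in replicate 3 and 221 lower. This comparison of 1 library with 2 had a median standard error of 0.508, against 0.378 for replicates 1 and 2 set against control, so the few calls do not show that the libraries were alike. The transcript g8602.t1, named because it was the only call, was at 0 in replicate 3 and at 7.93 and 4.13 in replicates 1 and 2. In every irradiated library except 6 h replicates 1 and 2 it was listed at 0, and the controls were at 7.64 ± 1.61 (SD, n = 3). The gene has 2 transcript models, between which RSEM divides shared reads, and summed over both it was at 7.93, 4.13 and 4.38 at 6 h and at 6.44, 7.00 and 9.47 in the controls.

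Among the 84 higher transcripts, replicate 3 was the farthest from the control mean in 62, replicate 1 in 16 and replicate 2 in 6. The median difference from the control mean was 1.16, 1.06 and 1.52 (log2) in replicates 1, 2 and 3. Among the 285 lower ones, replicate 3 was the farthest in 174, replicate 2 in 87 and replicate 1 in 24, with median differences of -1.25, -1.66 and -1.88. Over all tested transcripts, replicate 3 had the highest 6 h value in 37.2% and the lowest in 39.9%. All 3 libraries of 6 h lay above all 3 controls in 83 of the 84, and below all 3 in 278 of the 285. Over all tested transcripts this was so for 19.4% and 14.9%, and for the called ones the choice itself favours it. Of the 84, 18 were also called with replicates 1 and 2 alone and 55 with replicate 3 alone, against 0.164% and 1.79% of all tested. Of the 285, these numbers were 85 and 179, against 0.694% and 2.17%. The 84 and the 285 were picked with these same libraries, which favours such calls.

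The difference of 12 h from 4 h holds none of the 6 libraries, but its standard error came from the fit of all 27 libraries, the 6 among them. In this comparison 175 transcripts were higher at 12 h (1.37% of those tested) and 454 lower (3.54%). The 12 h libraries had 21 cycles of PCR and the 4 h libraries 15, so time and cycles cannot be told apart in this comparison either. The transcripts higher at 6 h went in both directions: 16 of the 84 (19%) were higher at 12 h than at 4 h and 13 (15.5%) were lower. Of the 285 lower at 6 h, 51 (17.9%) were lower at 12 h than at 4 h and 3 (1.05%) were higher. With only the 4 h and 12 h libraries in the fit, an alternative chosen after seeing the data, 226 transcripts were higher and 702 lower (1.76% and 5.48% of those tested). The 84 then held 16 higher and 13 lower ones and the 285 held 3 higher and 45 lower ones. The median log2 fold change of 12 h against 4 h was 0.28 for the 84, -0.62 for the 285 and -0.09 over all tested.

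These counts varied with single libraries. Without 4 h replicate 2 the comparison gave 118 higher and 249 lower, with 9 and 12 of the 84 and 24 lower of the 285. Without 12 h replicate 3 it gave 98 and 291, with 8 and 13 of the 84 and 32 lower of the 285. At an equal sum per library, higher transcripts were 48.8% of the calls in place of 27.8%, and 19 and 11 of the 84 and 44 lower of the 285 were called.

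The 84 transcripts are described next by their call between 12 h and 4 h, which fixes the direction of their medians between these times. The 13 that were lower at 12 h than at 4 h, g7793.t1 and g7792.t1 among them, had medians of 233, 173 and 216 in replicates 1, 2 and 3 of 6 h and of 43.8, 54.0 and 57.6 in the controls. Their median was 273 in the 4 h samples, 192 in those of 6 h, 156 in those of 9 h, 73.7 in those of 12 h, 71.3 in those of 15 h, 66.0 in those of 18 h, 71.0 in those of 21 h and 60.7 in those of 24 h. These were raised in all 6 h libraries to a like degree, with median differences from the control mean of 1.54, 1.26 and 1.53 (log2) in replicates 1, 2 and 3. Of the 13, 11 were called with replicates 1 and 2 alone, against 0.164% of all tested. The 16 that were higher at 12 h than at 4 h had medians of 32.7, 34.0 and 55.1 in replicates 1, 2 and 3 of 6 h, against 20.1, 12.4 and 15.3 in the controls. Here the course was 24.0 in the 4 h samples, 39.8 in those of 6 h, 60.2 in those of 9 h, 57.4 in those of 12 h, 48.5 in those of 15 h, 60.0 in those of 18 h, 68.1 in those of 21 h and 63.7 in those of 24 h. In all 16, replicate 3 lay above both other libraries of 6 h, against 37.2% of all tested and 73.8% of the 84. Their median differences from the control mean were 0.91, 0.95 and 1.64 (log2) in replicates 1, 2 and 3. With replicates 1 and 2 alone, 0 of the 16 were called (limma). The other 55 were called in neither direction between 12 h and 4 h, and 7 of them were called with replicates 1 and 2 alone. Their median differences from the control mean were 1.13, 1.07 and 1.42 (log2) in replicates 1, 2 and 3. All of these are parts of the 84, which were picked with these same 6 h libraries, and this favours such calls and differences.

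Read the other way, the transcripts that differed between 12 h and 4 h showed where each 6 h library stood. Of the 175 higher at 12 h, 165 (94.3%) had their highest 6 h value in replicate 3, against 37.2% of all tested transcripts, and 0 had their lowest there. Their median difference from the control mean was 0.36, 0.54 and 0.92 (log2) in replicates 1, 2 and 3 of 6 h and 0.16, -0.32 and 0.18 in control replicates 1, 2 and 3. Of the 454 lower at 12 h, 309 (68.1%) had their lowest 6 h value in replicate 3, against 39.9% of all tested. Their median difference was -0.19, -0.34 and -0.76 in replicates 1, 2 and 3. At an equal sum per library, the shares were 95.5% against 49.4% and 61.5% against 29.8%. With each 4 h or 12 h library left out in turn, the share of the higher ones was 92.2% to 97.5% and that of the lower ones 67.7% to 73.2%, and with only the 4 h and 12 h libraries in the fit the shares were 87.2% and 64.8%. Replicate 3 shares its 21 cycles with the 12 h libraries, and replicates 1 and 2 share their 15 cycles with the 4 h libraries. The part of cycles was not tested, and it cannot be told apart from other traits of that single library.

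**Figure D5:**
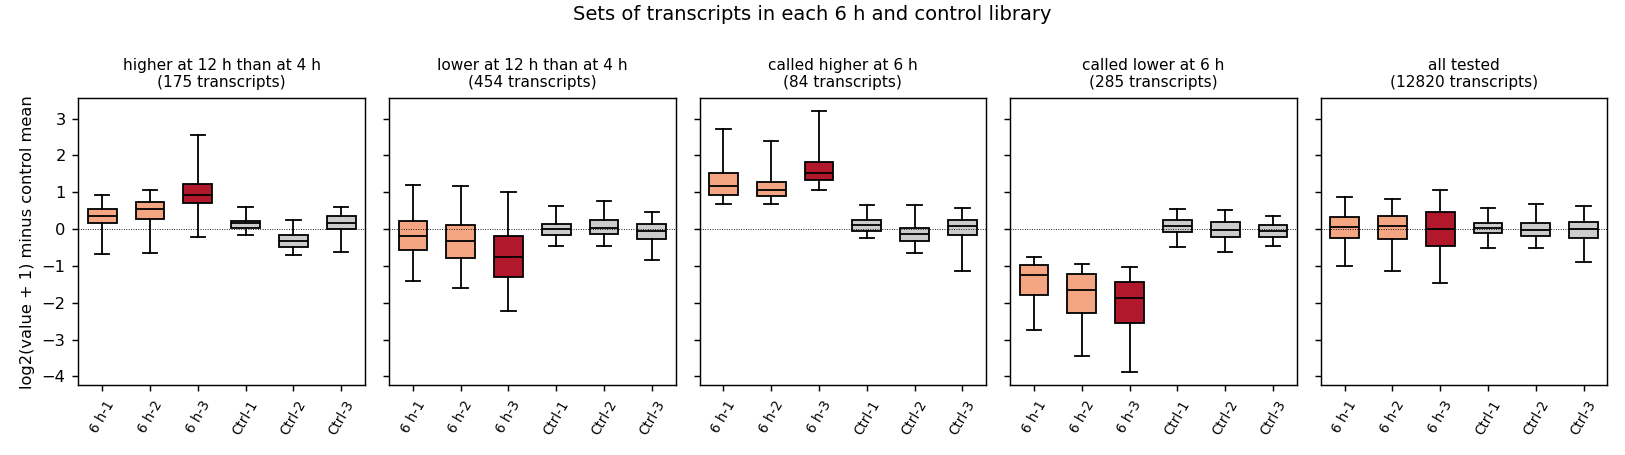
Difference of log2(value + 1) from the control mean in each 6 h and control library, for 5 sets of transcripts (boxes are quartiles with the median, whiskers the 5th and 95th percentile, 6 h replicate 3 in dark red). The 175 transcripts higher at 12 h than at 4 h have medians of 0.36, 0.54 and 0.92 in replicates 1, 2 and 3 of 6 h.

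The lower transcripts were followed by their levels over the time course. The median over the 285 of the mean value was 75.8 in the controls, 44.0 in the 4 h samples, 22.6 in those of 6 h, 39.6 in those of 9 h, 29.0 in those of 12 h, 41.5 in those of 15 h, 30.2 in those of 18 h, 37.6 in those of 21 h and 38.2 in those of 24 h. For the 84 higher ones it was 18.3 in the controls, 27.8 in the 4 h samples, 42.2 in those of 6 h, 54.1 in those of 9 h, 41.2 in those of 12 h, 35.3 in those of 15 h, 47.0 in those of 18 h, 50.5 in those of 21 h and 47.0 in those of 24 h. The median over all tested transcripts stayed between 27.0 and 28.0 in the 9 groups. The sets were picked for their 6 h and control values, which favours an extreme at 6 h, and the values at other times are given with no test.

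In the step before 6 h, 26 transcripts (0.203% of those tested) were lower at 6 h than at 4 h, and 0 were higher with limma. At an unadjusted p under 0.05, 562 were higher and 566 lower. The median of the 26 was 60.5, 46.0 and 56.8 in replicates 1, 2 and 3 of 6 h, against 176, 363 and 234 in the 4 h libraries. All 26 were lower in every 6 h library than in every 4 h library, which their choice by these same libraries favours. The share of all tested transcripts for which this held was not counted. In the controls the median was 243, 252 and 184. The 4 h mean was above the control mean in 24 of the 26, which their choice for 4 h values above those of 6 h favours. For this too, the share of all tested transcripts was not counted, so no rise at 4 h is read from it. The median log2 fold change was -2.02. Of the 26, 17 were also called lower at 6 h against the controls, in a comparison that shares the 6 h libraries and calls 2.22% of all tested lower. The count rested on single libraries: it was 0 without 4 h replicate 2 and 2 if replicate 3 of that time was left out, and 1 or 3 if 6 h replicate 2 or 3 was, while it was 69 without 4 h replicate 1 and 41 if 6 h replicate 1 was left out. It was 0 at an equal sum per library, 10 with no filter and 15 with a pseudocount of 0.1.

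Within the libraries of 15 cycles, replicates 1 and 2 of 6 h differed from 4 h in 3 transcripts, 1 higher (0.0078% of those tested) and 2 lower (0.0156%), which are named because they are so few. The higher one was g8602.t1. The lower ones were g2093.t1, at 180.1 and 77.1 in replicates 1 and 2 of 6 h against 597, 1272 and 467 at 4 h, and g13545.t1, at 28.9 and 12.8 against 71.9, 148 and 63.3. Both had a limma adjusted p of 0.0381. In both, 4 h replicate 2 was the highest library. The count was 1 without 4 h replicate 2 and 7 if replicate 1 of that time was left out, and 1 or 29 if 6 h replicate 2 or 1 was. It was 1 with no filter and 1 at an equal sum per library.

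A further comparison set 6 h against the average of the times before and after it. It can call a transcript that differs from only 1 of these times, and few calls do not show that few transcripts stood apart. Against the mean of 4 h and 9 h, 1 transcript was lower at 6 h (0.0078% of those tested) and 0 were higher with limma, with 370 higher and 458 lower at an unadjusted p under 0.05. The lower one, g5066.t1, named as the only call, was at 8.07, 6.43 and 3.69 in replicates 1, 2 and 3 of 6 h. It was at 20.5 ± 7.09 at 4 h and 27.1 ± 3.54 at 9 h (SD, n = 3 each), and at 26.4 ± 5.46 in the controls. Against the mean of 4 h and 9 h it fell by 1.81 on the log2 scale, with a standard error of 0.31 (limma adjusted p = 0.0446). The call was lost without 4 h replicate 2 or 3, 6 h replicate 2 or 3, or any of 9 h replicates 1 and 2, and also at an equal sum per library and with a replicate block, while the count was 60 if 4 h replicate 1 was left out, 16 if 6 h replicate 1 was and 2 if 9 h replicate 3 was.

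Genes with several transcript models were a small part of the calls. They gave 9 of the 84 higher transcripts (10.7%) and 6 of the 285 lower ones (2.11%), against 7.39% of all tested. RSEM divides shared reads among the models of a gene, so these calls can reflect a change of model as well as of the gene. Summed over the models, 2 of the 9 higher and 6 of the 6 lower kept a ratio over 2 in the same direction. No gene had a higher and a lower model. With values summed per gene in the fit, 85 genes were higher and 305 lower, and 77 of the 84 and 285 of the 285 were among them.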

How the data were processed

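RNA of 30 animals per sample was sequenced in 27 libraries, of which 3 of 6 h and 3 controls are described here. Single-end reads were aligned by the authors with bowtie2 to coding sequences of the species, TPM was estimated by RSEM within the Trinity suite, and a TMM factor was applied to each library. The deposited signal is this product, with column sums of 891312 to 1140371. The authors tested counts with DESeq2. The deposited table used here holds no counts, and the counts in the paper's supplement were not used. For these values limma 3.58.1 in R 4.3.3 was run on log2(value + 1), with trend and all 27 libraries in one fit of 9 group means (10 where 6 h replicate 3 was split off). Fold changes on this scale understate the change of low transcripts. With 3 against 3 samples an exact permutation test cannot give a p under 0.1. The tested transcripts reached a value of 1 in 3 or more libraries. The fit was tested on simulated data. Named transcripts were the first 2 in each direction by log2 fold change among those called, of genes with a single model, whose 6 h libraries did not overlap the controls, with g12777.t1 in addition. The named transcripts, the sets and the comparisons were chosen with earlier results of these data known. No enrichment was run, and no supplementary values were used. Python 3.11.15 with matplotlib 3.10.9 served for the figures.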

Additional observations from a re-analysis of the deposited data

Results flagged for a closer look

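The effect at 6 h and the effect at 4 h, both against the same controls, differed in 26 transcripts by a direct test of 6 h against 4 h (limma), and all 26 were lower at 6 h. Their median was 60.5, 46.0 and 56.8 in replicates 1, 2 and 3 of 6 h and 176, 363 and 234 in the 4 h libraries. The count was 0 without 4 h replicate 2, the library with the highest median.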

How the results depend on the processing

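The 84 higher transcripts became 157 with libraries rescaled to an equal sum, 49 with only the 2 groups in the fit (35 of the 84 among them) and 698 with no fold threshold. In 6 h replicates 1 and 2 and in replicate 3 each, chosen after seeing the data, 16 were higher and 78 lower. On leaving out single libraries, the higher ones numbered 21 to 150 and the lower ones 89 to 309, replicates 1 and 2 against control gave 13 to 98, replicate 3 against control 280 to 572, replicate 3 against replicates 1 and 2 1 to 2, replicates 1 and 2 against 4 h 1 to 29, 6 h against 4 h 0 to 69, 6 h against the mean of 4 h and 9 h 0 to 60, and 12 h against 4 h 367 to 592. Replicate 3 against control gave 845 with an equal sum. Replicate 3 against replicates 1 and 2 gave 9 with no filter. Replicates 1 and 2 against 4 h gave 1 with no filter and 1 with an equal sum. The step from 4 h gave 15 with a pseudocount of 0.1, 10 with no filter and 0 with an equal sum, and the comparison with the mean of 4 h and 9 h gave 2 with the pseudocount and 0 with an equal sum.
The deviations of same-numbered 6 h and control libraries from their group means had r of -0.09, 0.07 and 0.09. These values do not decide whether the replicate numbers pair the samples, because the deviations within a group are tied to each other. With a replicate block, 80 were higher and 277 lower at 6 h, replicate 3 against control gave 334, 6 h against 4 h 7, replicates 1 and 2 against 4 h 1 and 6 h against the mean of 4 h and 9 h 0. Without 9 h replicate 1 in the fit, added after the data were seen, 100 were higher and 338 lower. With only the 2 groups in the fit, also added later, 12 h against 4 h gave 928. Depth is not kept in the values, and rare transcripts had the widest spread.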
